A study of Mus musculus with 4 samples.

Results

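The genes described here encode the PI3K, AKT, mTOR and FOXO signalling machinery: 37 genes, chosen by name from the pathway, out of 23996 genes listed in the authors' deposited table. Each of the 37 names was found on 1 row of the table, and the authors' test was run on all 37. The cells were follicular helper T (TFH) cells, CD4 T cells that give help to B cells of the germinal centre. They came from the spleens of mice given ovalbumin in alum 7 days earlier and were sorted for CD4, CD44, CXCR5 and PD-1. Conditional knockout mice (Etv5 cKO, genotype Etv5f/f;Cd4-Cre) carried floxed alleles of Etv5, which encodes an ETS family transcription factor, together with Cd4-Cre. This Cre acts from the thymus onwards in cells that express CD4, so the gene is lost well before a T cell becomes a TFH cell. Wild-type controls (WT, genotype Etv5f/f) carried the same floxed alleles without Cre. There were 2 Etv5 cKO libraries and 2 WT libraries, and the labels give neither the age, sex nor strain of the mice, nor say whether the libraries came from separate mice.

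PI3K is the lipid kinase that the T cell receptor, ICOS, CD28 and cytokine receptors engage at the plasma membrane. Its lipid product recruits the kinases PDK1 and AKT. AKT then phosphorylates FOXO factors, which keeps them out of the nucleus, and relieves the TSC brake on the GTPase Rheb, which activates mTOR complex 1. In TFH cells ICOS signals largely through PI3K, and FOXO1 restrains the TFH programme. These steps are set mostly by phosphorylation, so messenger RNA levels describe how much transcript of each component was present and not how active the pathway was.

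For each gene the table holds 1 FPKM value per genotype, a level scaled for transcript length and library total. With both libraries of a genotype behind that single value, their spread cannot be given, and the depth is unknown. Error is therefore known only through the authors' Cuffdiff p-values, which may measure technical variation. A gene is called here at a Cuffdiff adjusted p below 0.05. The deleted gene was reduced: Etv5 stood at 2.12 FPKM in Etv5 cKO and 5.24 FPKM in WT (log2 fold change -1.31 in the authors' deposited table, Cuffdiff adjusted p = 0.0181). All 8 T cell and TFH markers were present, among them Bcl6 at 86.9 FPKM in Etv5 cKO and 95.9 FPKM in WT and Cd3e at 522 and 578 FPKM in Etv5 cKO and WT, and none was called. Myeloid and dendritic markers summed to 154 FPKM in Etv5 cKO and 108 FPKM in WT (10 of 10 tested genes higher, 1 called), and granulocyte, erythroid and platelet markers to 636 and 150 FPKM in Etv5 cKO and WT (12 of 14 tested rows higher, 7 called). Much of the last sum was globin: the row of Hbb-b1 and Hbb-bs alone held 279 FPKM in Etv5 cKO and 62.1 FPKM in WT. The platelet markers Pf4, Ppbp and Itga2b were not tested. B cell markers summed to 18.8 FPKM in Etv5 cKO and 19.3 FPKM in WT, and CD8 and NK markers to 79.1 and 82.9 FPKM in Etv5 cKO and WT. Most of their genes had higher values (8 of 10 and 8 of 9), but the abundant Cd22 (10.7 FPKM in Etv5 cKO and 12.98 FPKM in WT) and Nkg7 (45.0 FPKM in Etv5 cKO and 55.6 FPKM in WT) had lower ones. Of the 10 B cell markers 7 were too low to be tested, and 2 of the 3 tested had higher values. No marker found in these 4 lists was at 0. The Y-linked genes Ddx3y, Uty, Kdm5d and Eif2s3y were called lower in Etv5 cKO (each Cuffdiff adjusted p = 0.0181 in the authors' deposited table). Their log2 fold changes were -1.34 (Ddx3y), -1.28 (Uty), -1.35 (Kdm5d) and -1.22 (Eif2s3y). Ddx3y stood at 8.60 FPKM in Etv5 cKO and 21.8 FPKM in WT. Xist, which silences an X chromosome in female cells, stood at 172 FPKM in Etv5 cKO and 110 FPKM in WT and was not called. What part these differences play in the values below was not tested.

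None of the 37 genes was called in the authors' deposited table. The background was low as well: Cuffdiff called 0.346% of the 11569 tested genes. At an unadjusted p below 0.05 the members again counted 0, against 2.4% of all tested genes. They counted 0 also at an adjusted p below 0.1 (0.354% of all tested genes) and with p adjusted over every listed row (0.277%). The lowest unadjusted p among them was 0.243, that of Sesn1, and the Cuffdiff adjusted p was 0.999 for every one of the 37. Of the 37 genes 18 had higher and 19 had lower values in Etv5 cKO, and 48.9% of all tested genes had higher ones. The median log2 fold change was -0.0064 over the 37 genes and -0.0032 over all tested genes. The extremes were 0.31 for Pik3ip1 and -0.15 for Phlpp1. On the log2 scale 33 of the 37 genes lay within 0.2 of no change, or 89.2%, beside 78.9% of all tested genes and 84.7% of the 9671 tested genes that lie within the same span of FPKM values.

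A p above the threshold does not show that levels were equal, and the table gives no interval. The size of change that was called gives a scale. Within the FPKM span of the 37 genes, 34 genes were called, and the smallest absolute log2 fold change among them in the authors' deposited table was 0.68, that of Itgb3. The smallest one at an unadjusted p below 0.05 was 0.35. Changes of the size seen in the pathway genes were therefore below anything this experiment called.

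**Figure D1:**
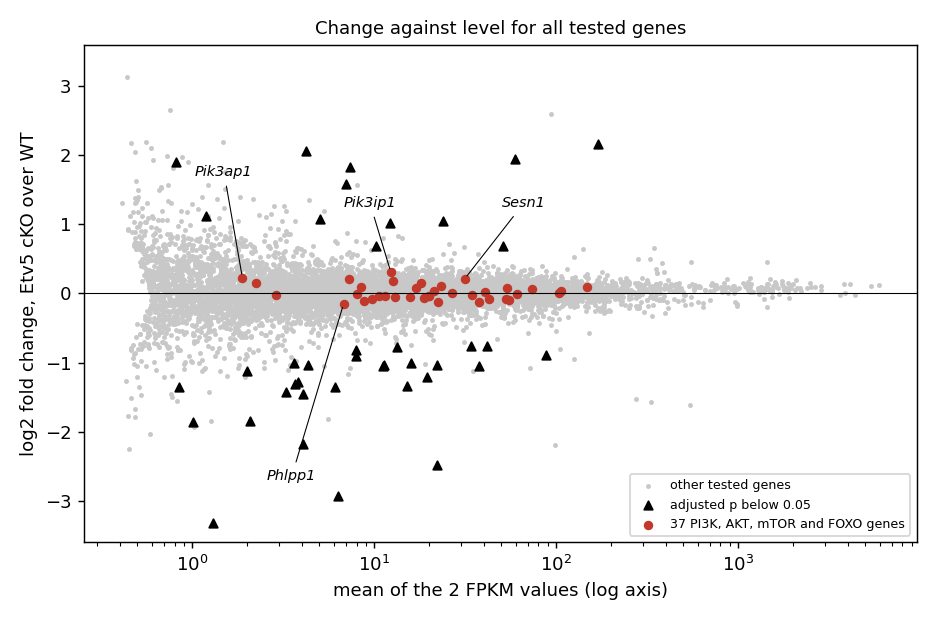
Log2 fold change (Etv5 cKO over WT, vertical axis) against the mean of both FPKM values (horizontal log axis) for tested genes; red points are the 37 pathway genes, black triangles the genes with an adjusted p below 0.05, and grey points the others. The red points lie between -0.15 and 0.31, while every triangle lies at least 0.68 from 0; 2 genes beyond 3.5 and 5 genes at 0 in either genotype are not drawn.

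The promoters were read for the binding letters of ETS factors, the family of the deleted protein, and of FOXO factors, the pathway's own transcription factors. RefSeq promoters (GRCm38.p6, the assembly behind mm10, 250 bases before to 50 after each annotated start) were at hand for 35 of the 37 genes. The ETS letters CCGGAAGT, searched on both strands, were found in 4 of these, or 11.4%, in 9.66% of the 8780 tested genes with a promoter and in 4.31% of all 27025 genes with one. The members were all tested genes, so the share over tested genes is the nearer background, and the members' share lay close to it. The stretches below show the match in capitals, as CCGGAAGT or as its reverse complement ACTTCCGG, in the gene's own direction from 5′ to 3′ and ending no later than the base before the start site.
Pik3ca (chr3:32396971-32397064, plus strand): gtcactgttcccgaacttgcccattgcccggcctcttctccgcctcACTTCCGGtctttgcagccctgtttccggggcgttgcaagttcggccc
Akt1s1 (chr7:44850277-44850371, plus strand): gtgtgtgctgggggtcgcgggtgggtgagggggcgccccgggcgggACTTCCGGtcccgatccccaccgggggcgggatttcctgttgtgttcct
Mtor (chr4:148448332-148448398, plus strand): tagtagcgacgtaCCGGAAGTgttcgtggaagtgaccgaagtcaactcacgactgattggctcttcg
Tsc2 (chr17:24632628-24632681, minus strand): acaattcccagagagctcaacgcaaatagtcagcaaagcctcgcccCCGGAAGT
The match begins 48 bases before the start in Pik3ca, 49 in Akt1s1, 237 in Mtor and 8 in Tsc2. These 4 genes had log2 fold changes of -0.07 (Pik3ca), -0.05 (Akt1s1), -0.11 (Mtor) and -0.06 (Tsc2) in the authors' deposited table. All 4 had slightly lower values in Etv5 cKO, and none was called; of the 848 tested genes with these letters 46.9% had higher values. The authors' model of Pik3ca starts at position 32436151, downstream of the promoter printed here. The Akt1s1 stretch lies inside the deposited span of that gene, which starts at position 44849224. A match of letters is not a binding site, and no binding was measured.

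The FOXO letters GTAAACA (both strands, no overlap with the ETS letters) were found in 3 of the 35 promoters, or 8.57%, in 3.12% of tested genes with a promoter and in 4.05% of all genes with one. They are shown because FOXO1 and FOXO3 are themselves in the pathway, and the capitals again mark the match, as GTAAACA or its reverse complement TGTTTAC.
Sesn1 (chr10:41810585-41810613, plus strand): gaaccttctacTGTTTACcagccttttgg
Pik3cg (chr12:32208545-32208573, minus strand): tttttcctaaaGTAAACAaatgatcctcc
Akt1 (chr12:112675028-112675056, minus strand): atctaccctctTGTTTACactcctggtga
Relative to the promoter's annotated start, the match begins 92 bases before it in Pik3cg and 161 bases before it in Akt1. In Sesn1 the match begins at base 23 after the start. The Pik3cg stretch lies inside the deposited span of that gene, which reaches position 32208649 on the minus strand. The authors' model of Akt1 reaches position 112674276, so it starts downstream of the stretch printed here. In the authors' deposited table the log2 fold changes were 0.21 for Sesn1, 0.08 for Pik3cg and 0.07 for Akt1. These 3 values were above 0, as were those of 50% of the 274 tested genes with these letters, and none of the 3 genes was called.

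The catalytic subunits of class I PI3K were dominated by 1 isoform in both genotypes. Pik3cd (mm10 chromosome 4, 149649168 to 149701629), which encodes p110delta, the main isoform of lymphocytes, stood at 108 FPKM in Etv5 cKO and 105 FPKM in WT. Pik3ca, the widely expressed p110alpha, stood at 18.4 and 19.3 FPKM in Etv5 cKO and WT. Pik3cg, the p110gamma that G protein-coupled receptors engage, stood at 17.5 FPKM in Etv5 cKO and 16.5 FPKM in WT. Pik3cb, which encodes p110beta, was the lowest at 2.86 and 2.91 FPKM in Etv5 cKO and WT. As a share of the 4 catalytic subunits' summed FPKM, Pik3cd made up 73.6% in Etv5 cKO and 73.1% in WT. The Pik3cd level was 5.87 times the Pik3ca level in Etv5 cKO and 5.46 times in WT. The Pik3cd log2 fold change in the authors' deposited table was 0.04, and all 4 catalytic genes lay within 0.1 of no change.

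Among the proteins that hold or restrain the catalytic subunits, 4 of 5 genes had higher values in Etv5 cKO, with none called. Pik3r1, which encodes p85alpha and its shorter forms, stood at 24.3 FPKM in Etv5 cKO and 22.5 FPKM in WT, and Pik3r2 (p85beta) at 10.5 and 10.8 FPKM in Etv5 cKO and WT. Pik3r5, which encodes p101, the partner of p110gamma, stood at 13.5 FPKM in Etv5 cKO and 11.9 FPKM in WT (log2 fold change 0.18, unadjusted p = 0.334 in the authors' deposited table). Pik3ip1, a membrane protein that inhibits PI3K in T cells, had the largest log2 fold change of the 37 genes, with 13.7 FPKM in Etv5 cKO and 11.02 FPKM in WT (0.31, unadjusted p = 0.687 in the authors' deposited table). That estimate is the least certain of the 37. The deposited locus of Pik3ip1 (mm10 chromosome 11, 3202353 to 3479831) holds 8 other listed genes, among them Limk2 and Drg1. Its log2 fold change per unit of the authors' test score was 1.08, against a median of 0.26 over the 37 genes, so a given fold change scored far less than elsewhere. Pik3ap1 encodes BCAP, an adaptor for PI3K known from B cells, NK cells and myeloid cells, and was the lowest of all 37 genes at 2.04 FPKM in Etv5 cKO and 1.74 FPKM in WT (log2 fold change 0.23, unadjusted p = 0.459 in the authors' deposited table). Myeloid and dendritic markers were higher in the same Etv5 cKO libraries (median log2 fold change 0.53). Of the B cell markers 8 of 10 had higher values in Etv5 cKO, but 7 of the 10 were not tested. The sum of the B cell markers was 18.8 FPKM in Etv5 cKO and 19.3 FPKM in WT. Which cells carried the Pik3ap1 transcripts was not tested. In bulk samples fewer cells of a type and less RNA per cell cannot be told apart.

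**Figure D2:**
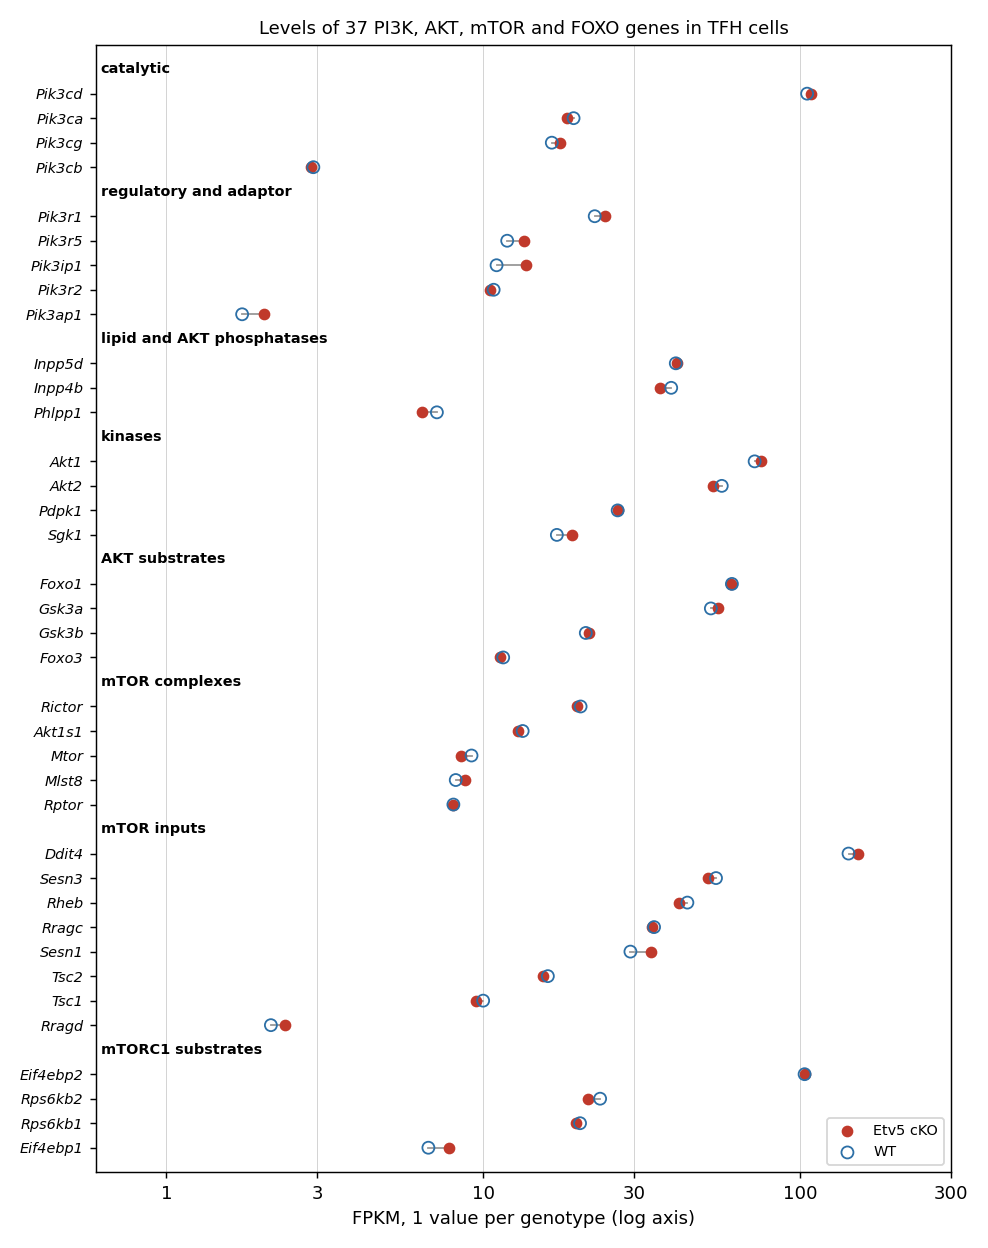
FPKM (horizontal log axis) of each of the 37 genes, ordered by level within its role; filled red points are Etv5 cKO and open blue circles WT, with 1 value per genotype and no error bar available. Levels span 2.04 FPKM for Pik3ap1 to 152 FPKM for Ddit4 in Etv5 cKO, and the points of both genotypes overlap or nearly touch except for small gaps such as those of Pik3ip1, Sesn1 and Eif4ebp1.

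The 3 genes of phosphatases that oppose PI3K and AKT lay within 0.2 of no change on the log2 scale, with 1 within 0.1. Of all tested genes 78.9% lay within 0.2 and 54.9% within 0.1. Inpp5d encodes SHIP1, which removes a phosphate from the PI3K product, and had 41.0 FPKM in Etv5 cKO and 40.5 FPKM in WT. Inpp4b, which acts on the product of SHIP1, stood at 36.1 FPKM in Etv5 cKO and 39.2 FPKM in WT (log2 fold change -0.12 in the authors' deposited table). Phlpp1, a phosphatase of AKT itself, stood at 6.43 and 7.14 FPKM in Etv5 cKO and WT. The Phlpp1 log2 fold change of -0.15 (unadjusted p = 0.442 in the authors' deposited table) was the most negative of the 37.

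The kinases of the core cascade were all well above the low end of the table. Pdpk1, which encodes PDK1, the kinase that activates AKT and SGK1, stood at 26.7 FPKM in Etv5 cKO and 26.6 FPKM in WT. Akt1 stood at 75.3 FPKM in Etv5 cKO and 71.9 FPKM in WT, and Akt2 at 53.0 and 56.6 FPKM in Etv5 cKO and WT. Akt1 made up 58.7% of the summed FPKM of Akt1 and Akt2 in Etv5 cKO and 55.9% in WT. Sgk1, a kinase related to AKT that mTOR complex 2 activates, stood at 19.0 FPKM in Etv5 cKO and 17.1 FPKM in WT (log2 fold change 0.15, unadjusted p = 0.455 in the authors' deposited table).

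All 4 genes of AKT substrates lay within 0.1 of no change on the log2 scale. Foxo1 (mm10 chromosome 3, 52268337 to 52350109) stood at 60.4 FPKM in Etv5 cKO and 61.0 FPKM in WT, a log2 fold change of -0.01 in the authors' deposited table. Foxo3 stood at 11.3 and 11.6 FPKM in Etv5 cKO and WT. Foxo1 thus made up 84.2% of the summed FPKM of both factors in Etv5 cKO and 84.1% in WT. The glycogen synthase kinases, which AKT inhibits, were led by Gsk3a at 55.1 FPKM in Etv5 cKO and 52.3 FPKM in WT, with Gsk3b at 21.5 and 21.1 FPKM in Etv5 cKO and WT.

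Subunits of the mTOR complexes stood at modest levels, lowest for Mtor, Rptor and Mlst8. Mtor, the kinase shared by both complexes, stood at 8.49 FPKM in Etv5 cKO and 9.19 FPKM in WT (log2 fold change -0.11 in the authors' deposited table). Rptor, which defines complex 1, stood at 8.02 and 8.05 FPKM in Etv5 cKO and WT. Mlst8, a subunit of both complexes, stood at 8.77 FPKM in Etv5 cKO and 8.19 FPKM in WT. These 3 core genes of complex 1 lay within a narrow span of FPKM in each genotype. Rictor, which defines complex 2, was 2.47 times the Rptor level in Etv5 cKO and 2.52 times in WT, at 19.8 and 20.3 FPKM. Akt1s1, which encodes PRAS40, an AKT substrate that inhibits complex 1, stood at 12.8 FPKM in Etv5 cKO and 13.3 FPKM in WT.

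Inputs to mTOR complex 1 included the highest and some of the lowest genes of the set. Ddit4 encodes REDD1, a stress-induced inhibitor that acts through the TSC proteins, and was the highest of the 37 at 152 FPKM in Etv5 cKO and 142 FPKM in WT. The sestrins, which restrain the complex when amino acids are short, had opposite signs. Sesn1 stood at 33.8 FPKM in Etv5 cKO and 29.2 FPKM in WT (log2 fold change 0.21), and Sesn3 at 51.3 and 54.3 FPKM in Etv5 cKO and WT (log2 fold change -0.08), in the authors' deposited table. Sesn1 made up 39.7% of the summed FPKM of both sestrins in Etv5 cKO and 34.9% in WT, the widest shift of make-up among the families compared. It rests on genes that were not called, and the shift itself has no test. Tsc1 stood at 9.505 FPKM in Etv5 cKO and 9.9997 FPKM in WT. Tsc2 stood at 15.4 and 16.0 FPKM in Etv5 cKO and WT, and its deposited locus also holds Pkd1. Rheb, the GTPase that the TSC proteins switch off, stood at 41.6 FPKM in Etv5 cKO and 44.1 FPKM in WT. Of the Rag GTPases that bring the complex to the lysosome, Rragc stood at 34.2 and 34.6 FPKM in Etv5 cKO and WT, and Rragd at 2.37 and 2.14 FPKM in Etv5 cKO and WT.

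The substrates of mTOR complex 1 differed in how evenly they divided between paralogues. Eif4ebp2, an inhibitor of cap-dependent translation, stood at 104 FPKM in Etv5 cKO and 103 FPKM in WT. Its paralogue Eif4ebp1 stood at 7.79 FPKM in Etv5 cKO and 6.72 FPKM in WT (log2 fold change 0.21, unadjusted p = 0.470 in the authors' deposited table). Eif4ebp2 made up 93.0% of their summed FPKM in Etv5 cKO and 93.9% in WT. The S6 kinases were nearly even: Rps6kb2 stood at 21.5 FPKM in Etv5 cKO and 23.4 FPKM in WT, and Rps6kb1 at 19.6 and 20.2 FPKM in Etv5 cKO and WT.

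**Figure D3:**
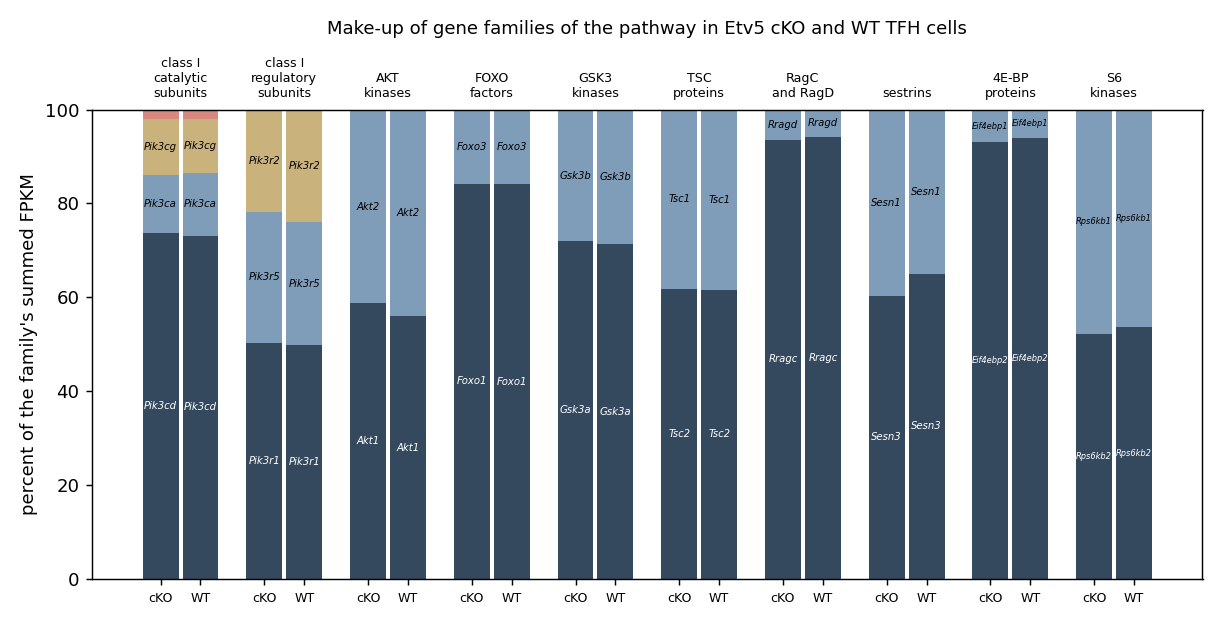
Each stacked bar shows the percent of a family's summed FPKM that each member contributes (vertical axis, from 0), with Etv5 cKO left of WT in each of 10 families; the unlabelled top segment of the catalytic subunits is Pik3cb. The leading member was the same in both bars of every pair, for example Pik3cd at 73.6% and 73.1% and Foxo1 at 84.2% and 84.1% in Etv5 cKO and WT, and the widest gap is that of the sestrins.

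Further genes of the pathway were listed apart from the 37. Of 27 tested further PI3K and AKT genes 0 were called in the authors' deposited table by Cuffdiff, with 0 at an unadjusted p below 0.05, 13 higher and 14 lower, and a median log2 fold change of -0.01. Of these 27 genes 37.04% lay within 0.1 of no change, beside 67.6% of the 37 members and 54.9% of all tested genes. Among those of at least 5 FPKM with larger differences were Tbc1d4, the AKT substrate that governs glucose transporter traffic, at 90.4 FPKM in Etv5 cKO and 110 FPKM in WT, and Inpp4a, a paralogue of Inpp4b, at 15.6 and 17.8 FPKM in Etv5 cKO and WT. Of 44 tested further genes of the mTOR complexes and amino acid sensing 0 were called by Cuffdiff, with 0 at an unadjusted p below 0.05, 24 higher and 20 lower, and a median log2 fold change of 0.01. Of these 44 genes 65.9% lay within 0.1 of no change. Their largest differences at a mean of at least 5 FPKM were those of Eif4e, the cap-binding protein, at 46.2 FPKM in Etv5 cKO and 51.4 FPKM in WT, of Depdc5, a repressor of complex 1, at 7.05 and 7.73 FPKM in Etv5 cKO and WT, and of Prkab1, a subunit of AMPK, at 34.9 FPKM in Etv5 cKO and 31.9 FPKM in WT.

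The list of receptors that feed PI3K held 2 called genes. Of 17 tested receptors 1 was called lower and 1 higher, where 0.242% of all tested genes were called lower and 0.104% higher. The receptor list was chosen with earlier results of these data known, so its count cannot be read as an enrichment. Igf1r, the receptor of insulin-like growth factor, stood at 5.52 FPKM in Etv5 cKO and 10.4 FPKM in WT (log2 fold change -0.91, Cuffdiff adjusted p = 0.0181 in the authors' deposited table). Il7r, the interleukin-7 receptor, stood at 62.8 FPKM in Etv5 cKO and 38.8 FPKM in WT (log2 fold change 0.69, Cuffdiff adjusted p = 0.0351 in the authors' deposited table). Adjusted over every listed gene, Igf1r kept its call and Il7r lost it. The chemokine receptors Cxcr4, at 69.2 and 88.0 FPKM, and Cxcr5, at 158 and 183 FPKM in Etv5 cKO and WT, and the interleukin-21 receptor Il21r, at 75.8 and 89.3 FPKM, had lower values without being called. The median log2 fold change of the 17 was -0.04.

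Outputs of the pathway that can be read in messenger RNA were also listed. The FOXO1 target list has 20 tested genes, 5 of which are among the 37, with 9 higher and 11 lower and a median log2 fold change of -0.01. Its 1 called gene was Il7r, as above. The list of ATF4 targets, through which mTOR complex 1 drives amino acid and one-carbon metabolism, had 10 of 13 tested genes higher, beside 48.9% of all tested genes. The median log2 fold change of this list was 0.08, with 0 called by Cuffdiff and 0 at an unadjusted p below 0.05. Its largest differences at 5 FPKM or more were those of the transporter Slc7a5 (15.2 FPKM in Etv5 cKO and 12.8 FPKM in WT), Phgdh (66.7 and 56.8 FPKM in Etv5 cKO and WT), which opens serine synthesis, and Shmt2 (40.4 and 34.8 FPKM in Etv5 cKO and WT), a mitochondrial enzyme of one-carbon metabolism.

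**Figure D4:**
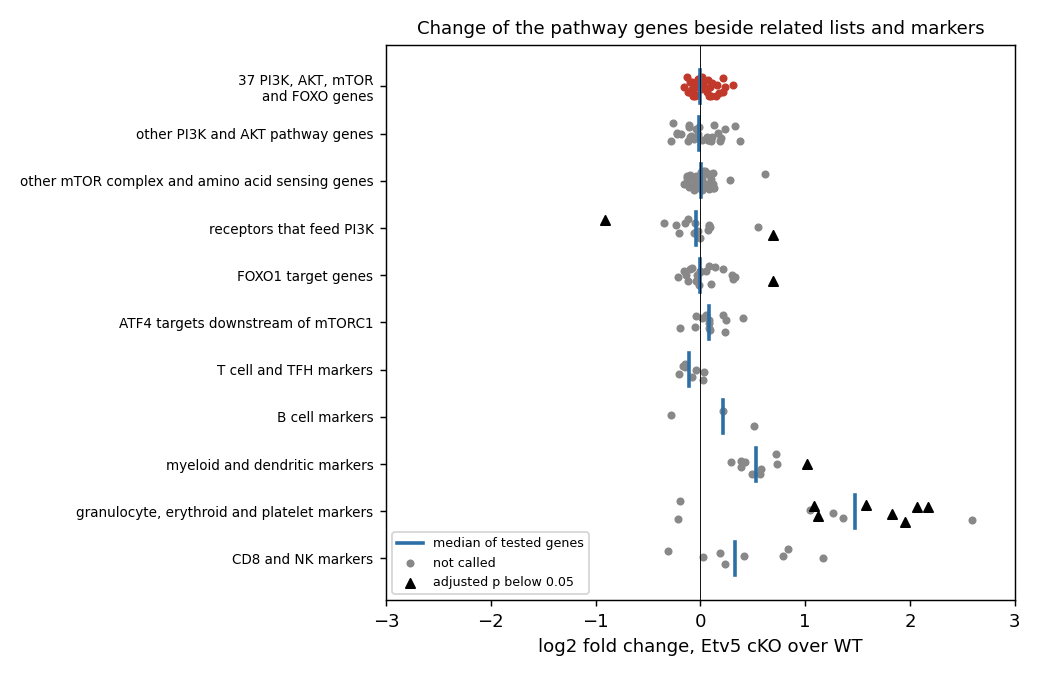
Log2 fold change (Etv5 cKO over WT, horizontal axis) of the tested genes of the 37-gene set (red) and of the related and marker lists (grey), with the median of each list as a blue bar and genes with an adjusted p below 0.05 as black triangles. The pathway genes and the other PI3K and mTOR lists are centred near 0, whereas the myeloid list has a median of 0.53 and the granulocyte, erythroid and platelet list one of 1.47; in that last list 1 row for Hbb-bs, a near-identical globin copy, at 10.07 lies off the axis.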

How the data were processed

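Messenger RNA of sorted splenic TFH cells was sequenced in 2 Etv5 cKO and 2 WT libraries; the kit was a stranded one for mRNA, per the labels' protocols. Per the submitters' processing notes the tools were TopHat2 2.0.13 and Cuffdiff 2.2.0 and the build was mm10, with annotation, strand setting and library scaling not given in the sources used here. Per the file headers, the authors' deposited table has 1 FPKM value per gene and genotype, a log2 fold change (Etv5 cKO over WT, no pseudocount), a fold ratio of the larger over the smaller FPKM, a Cuffdiff test score and its p-value before and after adjustment. FPKM shifts with library composition and with how reads of overlapping genes are split. It carries no counts, so no library-level test, interval or detection limit could be had.

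The 37 genes and all lists were chosen with earlier results of these data known. Genes were matched on the gene column split at commas, and called at a deposited adjusted p below 0.05 over 11569 tested genes. Named genes were all 37 members, Etv5 and, per list, called genes and the 3 largest changes at a mean of at least 5 FPKM. Bcl6, Atf4, Pf4, Ppbp, Itga2b, Ddx3y, Uty, Kdm5d, Eif2s3y, Xist and Itgb3 were chosen after their values were seen, as were genes that share a locus with a member. Marker genes that the rule names are mostly given as sums. A few genes under this rule are not reported here. Deposited starts were printed 1-based by adding 1 base. Motifs were searched in RefSeq promoters, and the search and the Benjamini-Hochberg adjustment were tested on simulated data. Alternatives were pseudocounts of 1 and 5, median centring, quantile normalization, filters at 1 and 5 FPKM, other thresholds and adjustment over every listed row. Python 3.11.15 and pandas 2.3.3 were used.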

Additional observations from a re-analysis of the deposited data

How the results depend on the processing

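The count of called genes among the 37 was 0 with p adjusted over every listed row, at an adjusted p below 0.1, at an unadjusted p below 0.05 and with filters at 1 and 5 FPKM. The median log2 fold change of the 37 moved by less than 0.1 under each alternative, including, as an alternative chosen after seeing the data, the 26 genes whose deposited locus holds no other gene. With p adjusted over every listed row the receptors that feed PI3K had 1 called gene and the FOXO1 targets 0, since Il7r lost its call; the larger number of genes adjusted over is the only difference. With quantile normalization the sign turned for Rptor (log2 fold change 0.0149) and Eif4ebp2 (-0.0088), both next to 0, while the other 35 genes kept their sign. No alternative scaling moved the median of all tested genes by 0.1. No replicate could be left out, and no paired analysis was possible because the table holds 1 value per gene and genotype. Depth is unknown, so its limit on small changes cannot be given.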

Other observations

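The ETS letters were also read across all tested genes with a RefSeq promoter of the same symbol. Of 848 tested genes with CCGGAAGT in the promoter, 0 were called in the authors' deposited table by Cuffdiff and 1 had an unadjusted p below 0.05, or 0.118%. Of 7932 tested genes without it 28 were called and 202, or 2.55%, had an unadjusted p below 0.05. The median absolute log2 fold change was 0.07 with the letters and 0.09 without them, and the 90th percentile was 0.20 with and 0.34 without. Genes with the letters were more highly expressed, at a median of 19.1 FPKM against 14.3 FPKM. Among genes of at least 5 FPKM, where the medians were 21.8 FPKM in both sets, the unadjusted p was below 0.05 in 0.134% of 744 genes with the letters and in 1.59% of 5903 genes without them. For the FOXO letters GTAAACA the shares were 2.55% of 274 genes with them and 2.30% of 8506 genes without. These are counts over genes, which are not independent, and they carry no test.

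Of the 37 pathway genes 11 share their deposited locus with another listed gene. For Mlst8 this is Bricd5, for Mtor Angptl7, for Gsk3b BC031361, and for Rps6kb1 Rnft1 and a micro RNA. How the authors' counting divided reads between these genes is not given in the sources used here.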
